A study of Homo sapiens with 8 samples.

Results

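The 10 genes described here are keratin genes of epithelial cells, KRT7, KRT8, KRT18, KRT19, KRT13, KRT15, KRT16, KRT80, KRT81 and KRT86, found by their symbols among the 63677 genes of the deposited table. All 10 were in the table, and all 10 passed the filter on low values. They belong to 55 keratin genes that the table lists by symbol. RNA was sequenced from LY2, a line that was derived from MCF-7 breast cancer cells and resists endocrine therapy, in 2 groups of 4 libraries. The shSRC1 cells stably carried short hairpin RNA against NCOA1, the gene of the nuclear receptor coactivator SRC-1, and the shNT cells carried a non-targeting hairpin. Both groups grew under 500 ng/mL puromycin with 4-hydroxytamoxifen in the medium, spent 72 h without steroids and were then given 4-hydroxytamoxifen, the active metabolite of tamoxifen, for 8 h, so no library shows these genes without the drug. The labels do not say whether the hairpin lines were pools or clones, or whether the replicates were separate cultures, so p-values speak of the spread between the libraries alone, and that spread may be technical.

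Keratins are the intermediate filament proteins of epithelial cells. A filament is built from pairs of an acidic type I keratin and a basic or neutral type II keratin, and a keratin without a partner is usually degraded. Simple epithelia, including the luminal cells of the breast, are known for KRT8 with KRT18 and KRT19, often with KRT7. Stratified epithelia use other pairs that mark layers or states, such as KRT13 in the upper layers of mucosa, KRT15 in basal cells and KRT16 in wounded or fast-dividing epidermis. KRT81 and KRT86 are keratins of the hair shaft. In the human genome the type II genes, with KRT18 as the exception among type I genes, lie on chromosome 12, and the other type I genes lie on chromosome 17.

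The libraries held 33771775 to 66248960 reads in shSRC1 and 58459196 to 67022036 in shNT, and the shSRC1 replicate 2 library was the shallow one. NCOA1 averaged 2036 ± 151 normalized reads in shSRC1 and 4396 ± 137 in shNT (SD, n = 4 each), with no overlap, as the labels say. Of 10 markers of luminal breast epithelium, 9 were tested, 3 rose, all of them keratins described below, and MUC1 fell, while CD24 was listed at 0 in every library. Over all tested genes 12.0% rose and 11.2% fell. The summed basal and myoepithelial markers were 722 to 838 normalized reads in shSRC1 and 633 to 707 in shNT, and 1 of their 5 tested members, TP63, rose. None of the 5 tested fibroblast, 2 leukocyte, 1 endothelial and 1 squamous markers passed the test. Their summed levels were 1452 to 1979, 39.1 to 61.2, 222 to 289 and 35.4 to 128 in shSRC1, against 1641 to 2194, 40.9 to 65.0, 232 to 277 and 25.1 to 58.5 in shNT. The endothelial marker PECAM1 and the squamous marker CRNN were listed at 0.

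Of the 10 keratins, 4 rose in shSRC1 against shNT, namely KRT8, KRT18, KRT19 and KRT13, 1 fell, KRT16, and 5 did not pass the test. Among all 19559 tested genes, 12.0% rose and 11.2% fell, 23.2% in all, at a Benjamini-Hochberg adjusted p under 0.05 in limma, a linear model with the variance shared across genes. The shSRC1 and shNT ranges did not overlap for 6 of the 10 keratins, against 29.0% of all tested genes. Their median log2 fold change was 0.13, against -0.00 over all tested genes. The 10 genes were chosen with earlier results of these data known, among them the changes of KRT8, KRT13, KRT16 and KRT19. The comparison with all tested genes is therefore a description, and no excess can be read from it. Fold changes are shSRC1 over shNT on the log2(value + 1) scale. Since whole cultures were sequenced, a change in the number of cells of a type and a change in RNA per cell cannot be told apart.

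**Figure D1:**
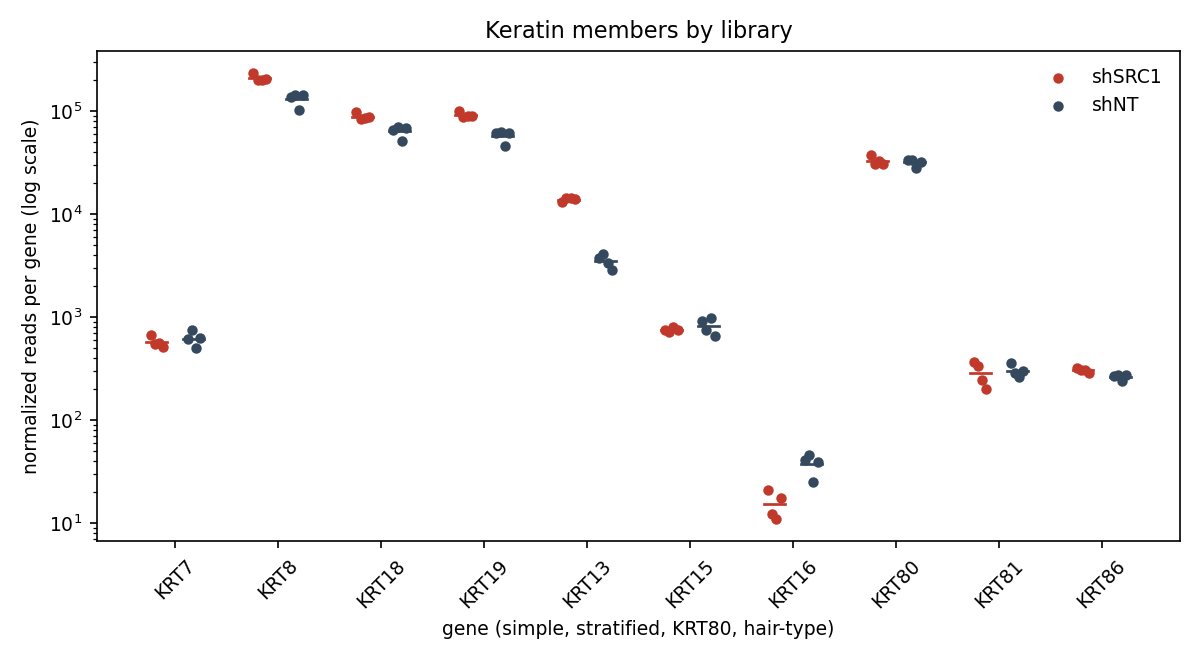
Normalized reads per gene on a log axis for the 10 keratins in each library, with shSRC1 in red left of shNT in blue and a horizontal line at the mean of each group of 4 libraries. All 4 shSRC1 points lie above all 4 shNT points for KRT8, KRT18, KRT19, KRT13 and KRT86, and below them for KRT16.

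Among the simple keratins, KRT8, the type II partner that is made first in embryonic epithelia, was the most abundant keratin in every library. It had 235045, 202267, 200794 and 204308 normalized reads in shSRC1 replicates 1 to 4, against 137714, 144690, 103828 and 142624 in shNT replicates 1 to 4. All shSRC1 libraries stood above all shNT libraries, although shSRC1 replicate 1 was high and shNT replicate 3 was low within their groups. KRT8 rose by a log2 fold change of 0.68, with a standard error of 0.12 and a 95% confidence interval of 0.43 to 0.93 (limma adjusted p = 0.000958). With shNT replicate 3 and shSRC1 replicate 2 both left out it was 0.59. By mean level KRT8 ranked 11 among the 19559 tested genes in shSRC1 and 20 in shNT, without correction for length.

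KRT18, the type I partner of KRT8, lies beside it on chromosome 12. It had 98085, 83738, 85394 and 88122 normalized reads in shSRC1 replicates 1 to 4, against 66416, 70740.5, 51443 and 69173 in shNT replicates 1 to 4. Again the groups did not overlap, with shSRC1 replicate 1 the highest library and shNT replicate 3 the lowest. For KRT18 the log2 fold change was 0.47 (standard error 0.11, 0.24 to 0.71, limma adjusted p = 0.00733). The KRT8 and KRT18 exons share 525 bases on opposite strands in the annotation, 7.63% of the exonic bases of KRT8 and 16.3% of those of KRT18. No strand setting of the counting is given in the sources used here, and therefore reads of that stretch cannot be assigned to either gene with certainty.

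KRT19, a type I keratin that lacks most of the tail domain and is found in ductal epithelia, had 101251, 88481, 89768 and 89727 normalized reads in shSRC1 replicates 1 to 4, against 61703, 62737, 46192 and 61869 in shNT replicates 1 to 4. The groups did not overlap, and shSRC1 replicate 1 and shNT replicate 3 stood apart in the same directions as for KRT8. The log2 fold change of 0.68 (standard error 0.11, 0.44 to 0.91, limma adjusted p = 0.000609) was close to that of KRT8, though KRT19 lies on another chromosome.

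KRT7, the further type II keratin of glandular ducts, was present at a low level. It had 675, 548, 562 and 512 normalized reads in shSRC1 replicates 1 to 4, against 607, 743, 498 and 624 in shNT replicates 1 to 4. The groups overlapped and the test was not passed, with a log2 fold change of -0.10 (standard error 0.13, -0.37 to 0.17, limma adjusted p = 0.591). An antisense gene overlaps 282 exonic bases of KRT7 and averaged 50.5 normalized reads in shSRC1 and 49.0 in shNT.

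The stratified keratins went in different directions. KRT13, the type I keratin of the upper layers of mucosal epithelium, had 13050.4, 14220.2, 14298 and 13936 normalized reads in shSRC1 replicates 1 to 4, against 3765, 4067, 3319 and 2892 in shNT replicates 1 to 4. Every shSRC1 library stood far above every shNT library. The log2 fold change of 1.99 (standard error 0.10, 1.78 to 2.21, limma adjusted p = 6.98e-09), 3.98-fold, was the largest among the 10, and 0.368% of all tested genes had a larger rise. Its usual type II partner KRT4 had 8 reads over the 4 shSRC1 libraries and 16 over the 4 shNT libraries, too few to be tested.

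KRT15, a type I keratin of basal layers and of the hair follicle bulge, had 753, 716, 801 and 741 normalized reads in shSRC1 replicates 1 to 4, against 914, 752, 977 and 658 in shNT replicates 1 to 4. The shSRC1 values lay inside the wider shNT range. For KRT15 the log2 fold change was -0.12 (standard error 0.12, -0.37 to 0.14, limma adjusted p = 0.494). KRT13 and KRT15 lie close together on chromosome 17, and 66 bases are the longest run that their coding sequences share, so most fragments of the pair differ. The end of that run is shown because it is the place where the genes are hardest to tell apart, with the bases that differ in capitals.
KRT13: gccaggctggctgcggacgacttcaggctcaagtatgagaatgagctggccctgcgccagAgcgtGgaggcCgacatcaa
KRT15: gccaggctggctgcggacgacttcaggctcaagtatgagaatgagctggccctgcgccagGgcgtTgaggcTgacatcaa
Both stretches are 80 bases of GENCODE 29 transcripts on the minus strand of GRCh38, joined from exons 2 and 3, at chr17:41503396-41503674 for KRT13 and chr17:41516917-41517114 for KRT15.

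KRT16, the type I keratin induced in wounded epidermis, was the lowest of the 10. It had 20.9, 12.2, 10.9 and 17.4 normalized reads in shSRC1 replicates 1 to 4, against 40.8, 45.3, 25.1 and 39.5 in shNT replicates 1 to 4. No shSRC1 library reached the lowest shNT library, which was replicate 3. KRT16 had a log2 fold change of -1.25 (standard error 0.30, -1.90 to -0.61, limma adjusted p = 0.00922). The call rests on 60 reads in shSRC1 and 166 in shNT, and with the minimum raised from 10 to 50 normalized reads the gene was not tested. Reads of KRT16 are also partly shared: 22.0% of the 50-base stretches of its transcript occur in other genes, mostly the pseudogene KRT16P3 (13.0%) and KRT14 (11.3%). KRT14 had 3 reads over the shSRC1 libraries and 5 over the shNT libraries, and KRT16P3 had 5 and 26. The end of the longest coding run that KRT16 shares with KRT14, 158 bases, is shown with the differing bases in capitals, since any shorter fragment of that run fits both genes.
KRT16: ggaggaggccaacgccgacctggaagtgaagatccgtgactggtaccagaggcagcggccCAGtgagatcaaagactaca
KRT14: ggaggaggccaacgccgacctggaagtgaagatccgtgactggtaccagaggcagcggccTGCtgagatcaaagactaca
These 80 bases lie in exon 1 of each gene on the minus strand of GRCh38, at chr17:41612196-41612275 for KRT16 and chr17:41586348-41586427 for KRT14.

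KRT80, a type II keratin of many epithelia with a placement near desmosomes, had 37424, 30454, 32777 and 30815 normalized reads in shSRC1 replicates 1 to 4, against 33716, 33857, 28307 and 32074 in shNT replicates 1 to 4. The groups overlapped throughout. Its log2 fold change of 0.04 (standard error 0.10, -0.17 to 0.24, limma adjusted p = 0.800) had the narrowest interval among the 5 keratins that did not pass.

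The hair-type keratins were low, and neither passed the test. KRT81 had 366, 336, 247 and 202 normalized reads in shSRC1 replicates 1 to 4, against 356, 288, 260 and 302 in shNT replicates 1 to 4. The widest spread was within shSRC1, where replicate 1 was the highest and replicate 4 the lowest. The same replicates held the extremes in shSRC1 of a tie with GC content across genes. It was taken between GC content and the log2 deviation of each gene from its mean over all libraries. Spearman's rho was 0.48 in replicate 1 and -0.22 in replicate 4. The part of this tie in KRT81 was not tested beyond a correction for length and GC content. For KRT81 the log2 fold change was -0.10 (standard error 0.17, -0.47 to 0.27, limma adjusted p = 0.708), and -0.18 with that correction. The tie is not particular to KRT81. shSRC1 replicate 1 and shNT replicate 3, with a rho of -0.22, were also the libraries that stood apart for KRT8 and KRT19. The rho of shNT replicate 4 was close to that, at -0.21, and this library did not stand apart for either gene. With the correction the log2 fold change was 0.61 for KRT8, 0.37 for KRT18, 0.56 for KRT19, 1.88 for KRT13 and -1.36 for KRT16, all still called. What part GC content had in these changes was not tested further.

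KRT86 had 323, 308, 308 and 290 normalized reads in shSRC1 replicates 1 to 4, against 269, 273, 239 and 275 in shNT replicates 1 to 4. The groups did not overlap, yet the log2 fold change of 0.22 (standard error 0.11, -0.01 to 0.45, limma adjusted p = 0.155) did not pass. KRT81 and KRT86 are the pair in the list whose reads are hardest to separate. Over the transcript of KRT81, 38.4% of 50-base stretches occur also in KRT86, and 33.3% of those of KRT86 occur in KRT81. Their coding sequences are identical over 605 bases, from base 61 to base 665 of each, and the sources used here do not say how reads of that run were assigned. The end of the run is shown with the differing bases in capitals.
KRT81: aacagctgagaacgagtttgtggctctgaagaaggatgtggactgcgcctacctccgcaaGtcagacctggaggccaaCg
KRT86: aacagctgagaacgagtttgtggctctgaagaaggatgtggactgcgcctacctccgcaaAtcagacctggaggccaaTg
The 80 bases of KRT81 join exons 3 and 4 on the minus strand at chr12:52288411-52289248 of GRCh38, and those of KRT86 join exons 5 and 6 on the plus strand at chr12:52304138-52304977. The levels of KRT81 and KRT86 are uncertain for this reason, while their sum does not depend on how reads were split between them, unless shared reads were dropped. The sum was 595 ± 89 normalized reads in shSRC1 and 565 ± 52 in shNT (SD, n = 4 each), with overlapping ranges.

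**Figure D2:**
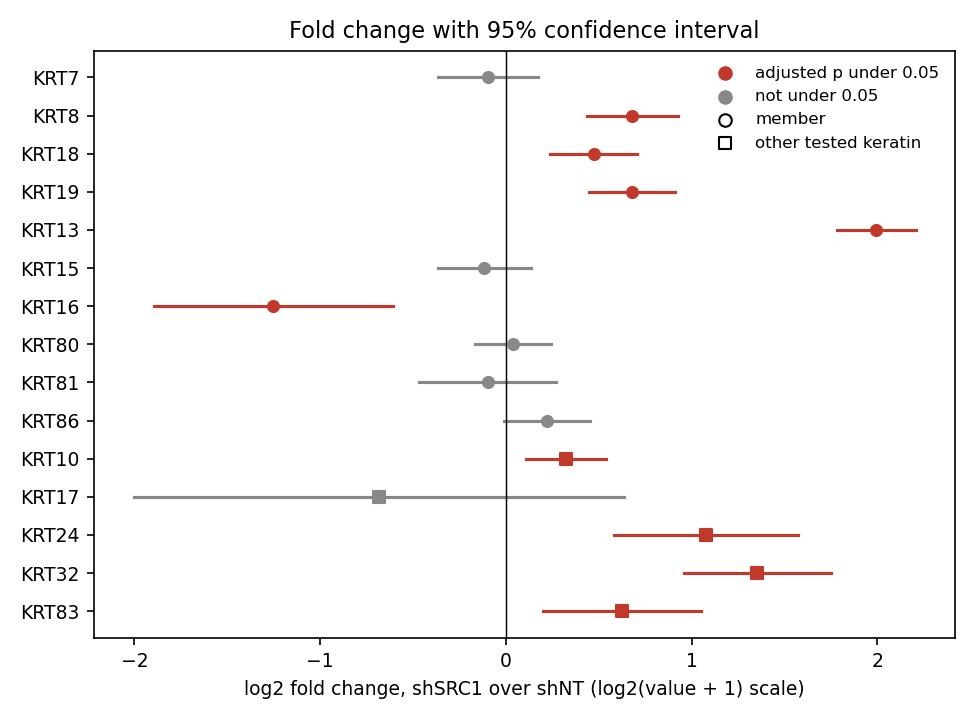
Log2 fold change of shSRC1 over shNT on the log2(value + 1) scale, with 95% confidence intervals from limma, for the 10 keratins (circles) and the 5 other keratin genes that were tested (squares), red where the adjusted p was under 0.05. KRT13 stands furthest to the right at 1.99 and KRT16 furthest to the left at -1.25, and the intervals of KRT7, KRT15, KRT80, KRT81, KRT86 and KRT17 cross 0.

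To ask whether keratins changed by different amounts, 10 ratios of keratins were taken within each library, where scaling cancels, and compared with an exact two-sided permutation test over 4 against 4 libraries, whose smallest p is 0.0286. The ranges of 9 of the 10 ratios did not overlap. Earlier results of these data had given the changes of KRT8, KRT13, KRT16 and KRT19, and 9 of the 10 pairs hold at least 1 of these genes, so the ratios are neither independent of those changes nor separate from each other. The ratios of KRT13 and KRT16 to KRT19, in which both changes were known, are given as a description, with no test. Of the other 8, 7 had that smallest p (0.0317 adjusted over the 10 ratios). Each of these 7 holds KRT8, KRT13 or KRT19, so their p-values give no support separate from the known changes.

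The KRT13 to KRT15 ratio changed most. Linear KRT13 to KRT15 ratios were 17.3, 19.8, 17.8 and 18.8 in shSRC1 replicates 1 to 4, against 4.12, 5.40, 3.40 and 4.39 in shNT replicates 1 to 4. On the log2 scale the difference was 2.11. KRT13 also gained on the abundant KRT19, with a log2 difference of 1.32, and KRT16 lost on it, with a log2 difference of -1.93. KRT15 and KRT7, which did not pass on their own, were lower relative to KRT19, by log2 differences of -0.79 and -0.78 (exact p = 0.0286 for each). The KRT15 to KRT19 ratio missed the threshold when any of the shSRC1 libraries was left out (adjusted exact p = 0.0635).

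The partners KRT8 and KRT18 did not keep 1 ratio. KRT8 to KRT18 stood at 2.40, 2.42, 2.35 and 2.32 in shSRC1 replicates 1 to 4, against 2.07, 2.05, 2.02 and 2.06 in shNT replicates 1 to 4. The groups were narrow and did not overlap, with a log2 difference of 0.21 (exact permutation p = 0.0286, adjusted 0.0317). KRT80, KRT81 and KRT86 were each lower relative to KRT8, with log2 differences of -0.64, -0.78 and -0.46 (exact p = 0.0286 for each), and the KRT81 to KRT8 ratio missed the threshold without shNT replicate 1 or 3 (adjusted exact p = 0.0635). The ratio of KRT81 to KRT86 overlapped between the groups, with a log2 difference of -0.32 (exact permutation p = 0.257).

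**Figure D3:**
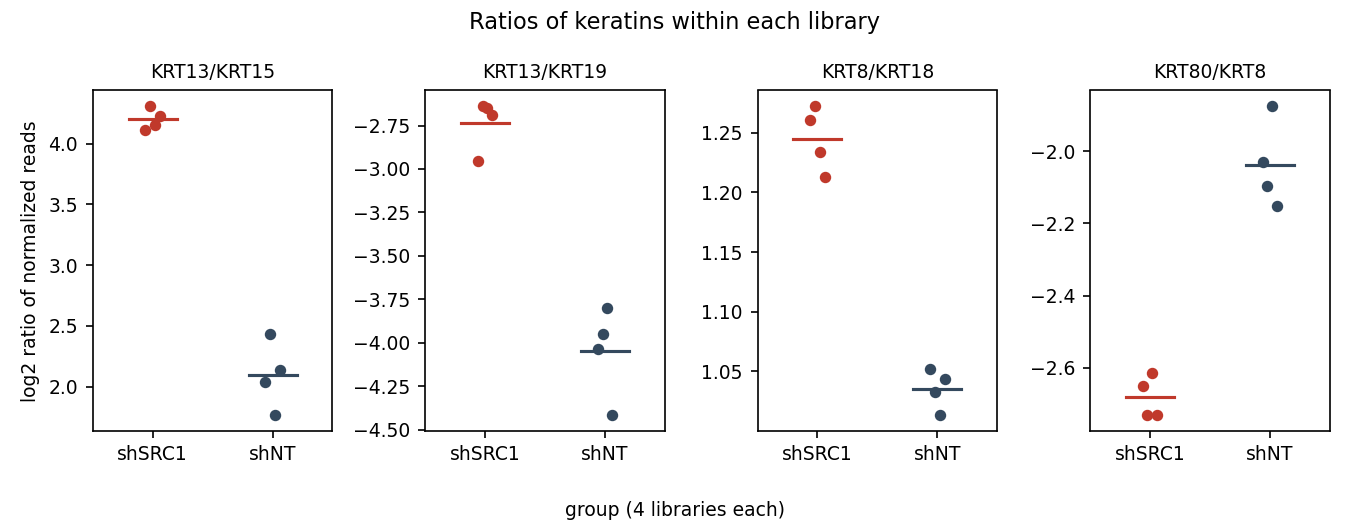
Log2 ratios of normalized reads within each library for 4 of the 10 pairs, with shSRC1 in red left of shNT in blue and a line at the mean of 4 libraries, each panel with its own axis, which does not start at 0. The groups do not overlap in any of the 4 panels, and the mean difference is 2.11 for KRT13/KRT15, 1.32 for KRT13/KRT19, 0.21 for KRT8/KRT18 and -0.64 for KRT80/KRT8.

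Summed over all keratin genes, normalized reads averaged 442883 ± 31281 in shSRC1 and 294184 ± 38747 in shNT (SD, n = 4 each), a ratio of 1.51. The 10 keratins took 0.706 to 0.785% of all reads in the shSRC1 libraries and 0.433 to 0.534% in the shNT libraries. The simple keratins KRT7, KRT8, KRT18 and KRT19 together were 1.54 times as high in shSRC1 as in shNT, and the stratified keratins KRT13, KRT15 and KRT16 together 3.35 times, nearly all of which was KRT13. Stratified keratin reads were 0.0318, 0.0399, 0.0401 and 0.0384 of simple keratin reads in shSRC1 replicates 1 to 4, against 0.0177, 0.0174, 0.0214 and 0.0131 in shNT replicates 1 to 4. The groups did not overlap in this ratio, and simple keratins outnumbered stratified ones in all 8 libraries. These sums weight genes by their level and were given no test.

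Within the keratin reads, the shares shifted by a few percentage points. KRT8 made up 47.5% ± 0.4 in shSRC1 and 44.9% ± 0.7 in shNT, and KRT19 made up 20.8% ± 0.1 in shSRC1 and 19.7% ± 0.2 in shNT (SD, n = 4 each). KRT18 went the other way as a share, with 20.1% ± 0.3 in shSRC1 and 21.9% ± 0.3 in shNT, although its level rose. KRT80 made up 7.41% ± 0.28 in shSRC1 and 10.9% ± 0.7 in shNT, and KRT13 made up 3.15% ± 0.33 in shSRC1 and 1.21% ± 0.20 in shNT. The ranges of these 5 shares did not overlap between the groups. The ratio of type I to type II reads per kilobase of transcript was 1.22 ± 0.02 in shSRC1 and 1.20 ± 0.01 in shNT. It was taken over the 10 genes, and the ranges overlapped. This ratio depends on the length used, so no conclusion on the balance of the types is drawn from it. The type II keratin KRT80 stood at 8517 per kilobase of transcript in shSRC1 and 8289 in shNT. Per kilobase of coding sequence it stood at 24239 in shSRC1 and 23590 in shNT.

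**Figure D4:**
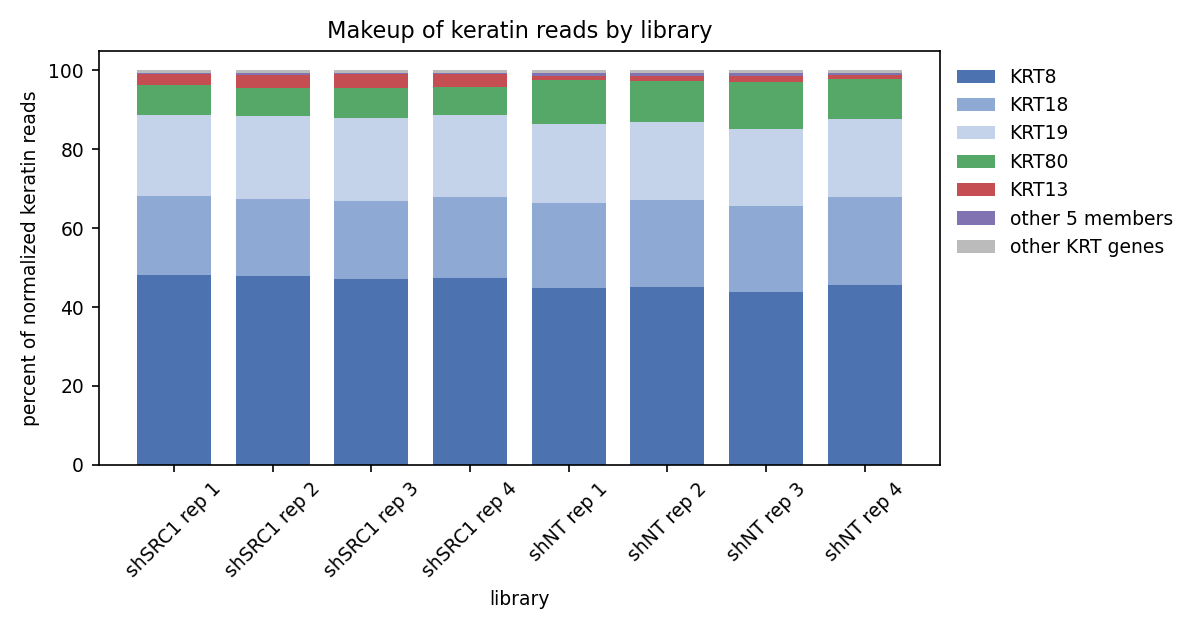
Percent of all normalized keratin reads taken by each keratin in each library, as stacked bars from 0 to 100, with the 4 shSRC1 libraries left of the 4 shNT libraries. KRT8 takes the largest part of every bar, the KRT13 part averages 3.15% in shSRC1 and 1.21% in shNT, and the KRT80 part 7.41% in shSRC1 and 10.9% in shNT.

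Levels were also put in order per kilobase of transcript, using the lengths of GENCODE 29 transcripts. KRT8 came first in both groups, with 99061 ± 7694 normalized reads per kilobase in shSRC1 and 62189 ± 9007 in shNT. KRT19 and KRT18 followed, at 66408 ± 4311 and 56872 ± 4114 in shSRC1 and at 41817 ± 5733 and 41257 ± 5665 in shNT, where their order was within the spread. KRT80 and KRT13 came next. In shSRC1 they stood at 8517 ± 830 and 8167 ± 337 per kilobase of transcript, within the spread of each other. That closeness depends on the length used, since per kilobase of the coding part KRT80 stood at 24239 and KRT13 at 10099 in shSRC1. In shNT they were apart, at 8289 ± 670 for KRT80 and 2066 ± 303 for KRT13. KRT7 stood at 327 ± 40 per kilobase in shSRC1 and 352 ± 57 in shNT. KRT81, KRT15 and KRT86 stood between 139 and 149 per kilobase in shSRC1 and between 119 and 158 in shNT, where KRT86 was lowest. KRT16 was last, at 9.34 ± 2.82 in shSRC1 and 22.9 ± 5.3 in shNT. The place of KRT15 also depends on the length used, since its transcript has 5237 bases and a coding part of 1368. By the coding part KRT15 came sixth in both groups, ahead of KRT7.

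Beyond the 10, the table listed 45 other keratin genes. No read was seen for 11 of them, 29 did not reach the filter and 5 were tested, of which 4 rose and none fell, against 12.0% and 11.2% of all tested genes. KRT32, a type I hair keratin, averaged 130 ± 18 normalized reads in shSRC1 and 50.4 ± 8.6 in shNT, with a log2 fold change of 1.35 (standard error 0.19, limma adjusted p = 0.00016). KRT24, a type I keratin of the chromosome 17 cluster, averaged 76.8 ± 7.8 in shSRC1 and 37.0 ± 11.3 in shNT, with a log2 fold change of 1.08 (standard error 0.23, limma adjusted p = 0.00467). KRT83, a type II hair keratin, and KRT10, the type I keratin of suprabasal epidermis, rose by less. KRT83 averaged 175 ± 45 in shSRC1 and 111 ± 20 in shNT with overlapping ranges, a log2 fold change of 0.63 (limma adjusted p = 0.0356), and KRT10 averaged 1993 ± 54 in shSRC1 and 1605 ± 233 in shNT, a log2 fold change of 0.32 (limma adjusted p = 0.0325). With shNT replicate 3 and shSRC1 replicate 2 left out, KRT32 and KRT24 still passed and KRT83 and KRT10 did not, so 2 of the 4 calls were left. The calls of KRT83 and KRT10 were also lost without shNT replicate 1 or without any of shSRC1 replicates 1, 2 and 3.

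KRT17, KRT5 and KRT6A, keratins known from basal and squamous cells, were low, unlike KRT15 and KRT13 described above. KRT17 averaged 5.34 normalized reads in shSRC1 and 9.07 in shNT and did not pass. KRT5 had 36.1, 21.0, 0 and 0 normalized reads in shSRC1 replicates 1 to 4, against 0.928, 2.67, 13.9 and 1.79 in shNT replicates 1 to 4. KRT6A had 47.5, 36.7, 0 and 0 in shSRC1 replicates 1 to 4, against 0, 0, 5.57 and 0 in shNT replicates 1 to 4. Reads of KRT5 and KRT6A thus came mostly from shSRC1 replicates 1 and 2, while KRT13 and the simple keratins were high in all 4 shSRC1 libraries.

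Processed copies of KRT8 and KRT18 are scattered over the genome, and 32.7% of the 50-base stretches of KRT8 and 31.8% of those of KRT18 occur in other genes. The 29 KRT8 pseudogenes with reads summed to 2.69% of the KRT8 value in shSRC1 and 2.62% in shNT. The shSRC1 sum includes 4636 normalized reads of KRT8P3 in replicate 2, against 570 to 654 in the other shSRC1 libraries. Of the 8 that were tested, KRT8P37, KRT8P45 and KRT8P7 rose and none fell, with log2 fold changes of 0.61, 0.59 and 0.96 (limma adjusted p = 0.00072, 0.00255 and 0.0106). Over all tested genes 12.0% rose and 11.2% fell. KRT8P12 averaged 655 in shSRC1 and 751 in shNT, a log2 fold change of -0.20 that did not pass (limma adjusted p = 0.135). The 37 KRT18 pseudogenes with reads summed to 0.199% of KRT18 in shSRC1 and 0.331% in shNT, and of the 5 tested only KRT18P34 passed, with a fall (log2 fold change -1.12, limma adjusted p = 0.0428). The KRT18P34 ranges overlapped, and its lowest library held 9 reads.

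Around the keratin clusters, 25 tested protein-coding genes that are not keratins were counted on each side of the members. On chromosome 12, 16 of these 50 rose and 6 fell, with a median log2 fold change of 0.14. The 2 sides differed. At higher coordinates than the members, 11 of 25 rose and 2 fell (median 0.25), and at lower coordinates 5 of 25 rose and 4 fell (median 0.006). On chromosome 17, 6 of 50 rose and 4 fell, with a median of 0.10. Over all tested genes 12.0% rose and 11.2% fell, so the chromosome 17 neighbours were close to the background, and rises were more frequent than that among the chromosome 12 neighbours, a difference that was given no test. Of the tested keratin genes, 3 of 7 rose and none fell on chromosome 12, and 5 of 8 rose and 1 fell on chromosome 17. Within the chromosome 17 cluster KRT13 rose, while KRT15 close by did not pass.

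Genes that hold keratin filaments in place were counted from a list of 24 anchors and cytolinkers, proteins of desmosomes and hemidesmosomes and the plakins that link filaments to them. Of 21 tested, 5 fell and none rose, or 3 fell and 1 rose with upper-quartile scaling and 9 fell and 1 rose with the replicate block or in DESeq2. Among all tested genes 12.0% rose, 11.2% fell and 23.2% were called in either direction, so the number of anchors called is near the background in total, with all of the calls falls. The background also moved with the setting. Of 19559 tested genes, 2582 rose and 2276 fell with upper-quartile scaling, 3290 rose and 3108 fell with the replicate block, and 2660 rose and 2644 fell in DESeq2. The median log2 fold change of the list was -0.12, against -0.00 over all tested genes. DSP, desmoplakin, had 11079.5, 9734, 10560.5 and 11171 normalized reads in shSRC1 replicates 1 to 4, against 14406, 12726, 16396 and 13376 in shNT replicates 1 to 4. The groups did not overlap, and its log2 fold change was -0.41 (standard error 0.09, limma adjusted p = 0.00551). PKP1, plakophilin 1, fell by 0.39 (standard error 0.10, limma adjusted p = 0.0106), ITGB4, the hemidesmosome integrin, by 0.46 (standard error 0.13, limma adjusted p = 0.018) and PLEC, plectin, by 0.76 (standard error 0.22, limma adjusted p = 0.0383) on the log2 scale. PNN, pinin, found at desmosomes and in the nucleus, was the further gene that fell (limma adjusted p = 0.0491), and its call was lost under 12 of 19 alternatives, TMM scaling and edgeR among them. The call of DSP and that of PKP1 held with shNT replicate 3 and shSRC1 replicate 2 left out, and those of ITGB4, PLEC and PNN did not, so 2 falls and 1 rise were called there. The calls of ITGB4 and PLEC were also lost without any of shSRC1 replicates 3 and 4 and shNT replicates 1 and 3. That of PLEC was lost with upper-quartile scaling and with no filter too. The ranges of ITGB4, PLEC and PNN overlapped between the groups. PLEC had 51195 and 53596 normalized reads in shNT replicates 1 and 3, against 30925 and 31319 in shNT replicates 2 and 4. With the correction for length and GC content 7 fell and 2 rose, where 2618 of all 18787 tested genes fell and 3328 rose.

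Of the other intermediate filament genes, 10 were tested, 1 rose and 2 fell, a number close to the 23.2% called among all tested genes. PRPH, peripherin, averaged 588 ± 59 in shSRC1 and 358 ± 44 in shNT, with a log2 fold change of 0.72 (standard error 0.12, limma adjusted p = 0.000639). SYNM, synemin, averaged 468 ± 29 in shSRC1 and 1018 ± 36 in shNT, with a log2 fold change of -1.12 (standard error 0.09, limma adjusted p = 8.4e-07). NES, nestin, fell by 0.44 on the log2 scale (standard error 0.09, limma adjusted p = 0.0029). VIM, the vimentin gene of mesenchymal cells, had a log2 fold change of 0.04 and did not pass (limma adjusted p = 0.745).

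Genes of the cornified envelope and of squamous differentiation were mostly at or near 0. Of 25 listed, 10 were tested, 3 rose and 1 fell, against 12.0% and 11.2% of all tested genes. Their median log2 fold change was 0.47, against -0.00 over all tested genes, and 6 of the 25 were listed at 0 in every library. The calcium-binding proteins S100A8 and S100A9 rose, S100A8 with 36.1, 31.5, 54.5 and 50.4 normalized reads in shSRC1 replicates 1 to 4, against 3.71, 11.6, 13.0 and 6.28 in shNT replicates 1 to 4. The groups did not overlap, at a log2 fold change of 2.29 (standard error 0.38, limma adjusted p = 0.000729), and that of S100A9 was 1.74 (standard error 0.22, limma adjusted p = 8.02e-05). The S100A8 call rests on 171 reads in shSRC1 and 38 in shNT, with as few as 4 in a library. S100A8 met the filter through its shSRC1 libraries, as shNT replicates 1 and 4 were below 10. With a minimum of 50 normalized reads it was not tested. CNFN, cornifelin, rose by 0.60 (limma adjusted p = 0.0303) and ECM1 fell by 0.80 (limma adjusted p = 0.0148) on the log2 scale. The call of CNFN was lost without any of the shSRC1 replicates or without shNT replicate 1 or 3, and that of ECM1 without shNT replicate 1 (limma adjusted p = 0.052). IVL, involucrin, stood at a log2 fold change of 0.25 and did not pass (limma adjusted p = 0.565).

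All 26 listed transcription factors known to act on keratin genes or epithelial fate were tested, and 4 rose and 6 fell, against 12.0% and 11.2% of all tested genes, with a median log2 fold change of -0.01. With the correction for length and GC content 8 rose and 8 fell, where 3328 of all 18787 tested genes rose and 2618 fell. The 4 with the smallest adjusted p were FOSL1, GRHL3, KLF5 and GRHL1. FOSL1, an AP-1 subunit, fell by 1.02 (standard error 0.13, limma adjusted p = 9.67e-05), KLF5, a factor of basal epithelial cells, by 0.50 (standard error 0.08, limma adjusted p = 0.00082) and GRHL1, a grainyhead factor of desmosome genes, by 0.51 (standard error 0.09, limma adjusted p = 0.000929) on the log2 scale, while GRHL3, a grainyhead factor of epidermal barrier genes, rose by 0.53 (standard error 0.09, limma adjusted p = 0.000617). TP63, the p63 factor of basal and stratified epithelia, had 135, 98.0, 107 and 122 normalized reads in shSRC1 replicates 1 to 4, against 54.7, 64.9, 57.6 and 44.9 in shNT replicates 1 to 4. The groups did not overlap, and its log2 fold change was 1.05 (standard error 0.18, limma adjusted p = 0.00113). TFAP2A, whose adjusted p was smaller than that of TP63, fell by 0.46 on the log2 scale (limma adjusted p = 0.00107), also without overlap. KLF4 and NFE2L2 were the other factors that fell, and OVOL2 and RARA the others that rose. The call of RARA was lost under 8 of 19 alternatives and that of NFE2L2 under 4 of 19. Both were lost with shNT replicate 3 and shSRC1 replicate 2 left out, while the calls of KLF4 and OVOL2 held under all alternatives.

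**Figure D5:**
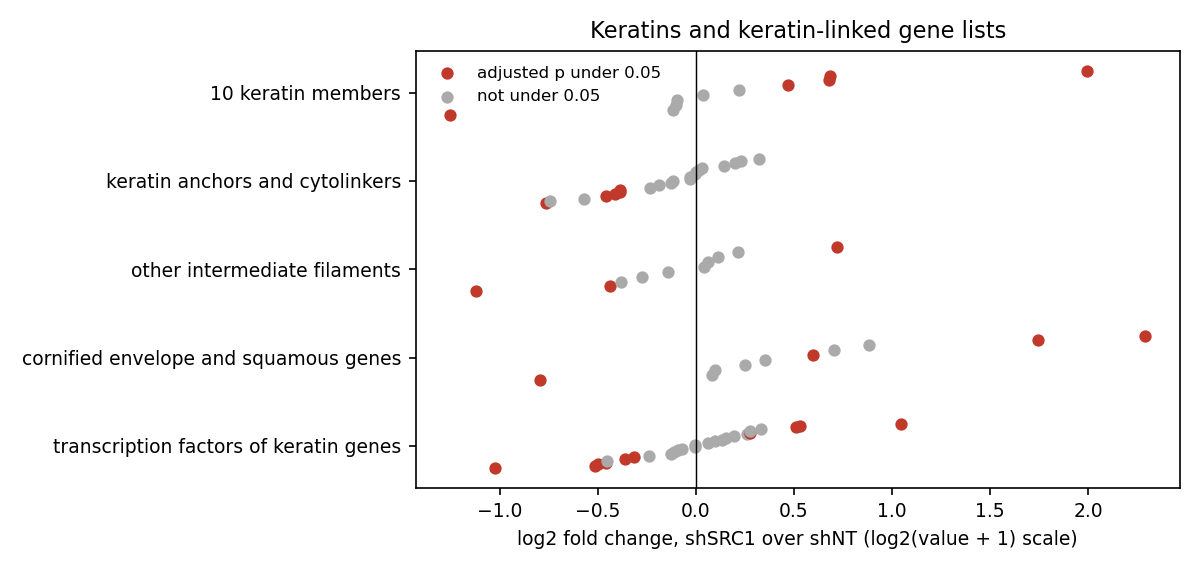
Log2 fold change of shSRC1 over shNT on the log2(value + 1) scale for each tested gene of the 10 keratins and of 4 lists of linked genes, 1 point per gene, red where the limma adjusted p was under 0.05. All 5 red points of the anchors and cytolinkers lie left of 0 (not drawn, 1 member rose with upper-quartile scaling, the replicate block, DESeq2 or the 2 libraries left out, and 2 rose with length and GC correction), whereas the other rows have red points on both sides.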

How the data were processed

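Poly(A)-selected RNA of 8 LY2 libraries was sequenced, 4 per group, with groups and replicate numbers from the labels. The authors deposited a signal per gene, namely reads scaled by a size factor per library. GRCh37, TopHat2 2.0.12, HTSeq 0.6.1, DESeq2 and DESeq appear in the submitters' processing notes, and how reads were counted is not given in the sources used here. Within each library 100% of values were whole multiples of a fixed step within 0.001 reads, so whole reads were recovered. A library floor of 3 reads corresponds to 2.73 to 5.25 normalized reads in shSRC1 and 2.67 to 2.79 in shNT. Counting limits cover counting error only.

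The 19559 genes that reached 10 normalized reads in 4 or more libraries were tested with limma 3.58.1 in R 4.3.3 (trend and robust variances) on log2(value + 1), without a replicate block, with two-sided Benjamini-Hochberg adjusted p-values over all of them and a threshold of 0.05. The step was tested on simulated data. All 10 keratins, NCOA1, other keratin genes past the threshold and up to 4 members past it per list were named, with pseudogenes and overlapping genes that had reads. KRT4, KRT5, KRT6A, KRT14, KRT17, VIM, IVL, PNN, CD24, CRNN and PECAM1 were named after their values were seen, and so were the called transcription factors beyond the first 4, TP63 among them. The keratins, lists and ratios were chosen with earlier results of these data known. Replicate numbers were not taken to pair the libraries.

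GENCODE 29 on GRCh38, another build than that of the table, gave gene order, transcript length, GC content, exon overlaps, shared 50-base stretches and the printed sequences, whose coordinates are of GRCh38. Length and GC content were found for 18787 of the tested genes (96.05%). Alternatives were TMM and upper-quartile scaling, pseudocounts of 0.5 and 5, no filter or a minimum of 50, leaving out each library, a replicate block, leaving out shNT replicate 3 and shSRC1 replicate 2 together, a loess correction for length and GC content (span 0.3), edgeR 4.0.16 quasi-likelihood and DESeq2 1.42.0 on recovered reads.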

Additional observations from a re-analysis of the deposited data

Results flagged for a closer look

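In 76 groups of 4 libraries the highest or lowest library was compared with the other 3, and 7 stood apart by Dixon's criterion, where chance gives about 1 in 20. For KRT8, shSRC1 replicate 1 held 235045 normalized reads, against 200794 to 204308 in the other shSRC1 libraries, and shNT replicate 3 held 103828, against 137714 to 144690 in the other shNT libraries. For KRT19, shSRC1 replicate 1 held 101251 (88481 to 89768 in the others) and shNT replicate 3 held 46192 (61703 to 62737 in the others). KRT86 stood at 238.6 in shNT replicate 3, below the 269 to 275 of the other shNT libraries. The log2 ratio of KRT13 to KRT19 was -2.96 in shSRC1 replicate 1, below the -2.69 to -2.64 of the other shSRC1 libraries. The pseudogene KRT8P3 held 4636 normalized reads in shSRC1 replicate 2, the shallow library, against 570 to 654 in the other shSRC1 libraries and 356 to 460 in the shNT libraries, and the cause was not tested.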

How the results depend on the processing

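Under every alternative 5 of the 10 keratins were called, except with a minimum of 50, where 4 of 9 were and KRT16 was not tested. Calls over all genes ran from 3166 to 6398 against 4538. No called keratin changed direction. With 1 library left out, KRT80 ran from -0.026 to 0.073, below 0 without shSRC1 replicate 1 or shNT replicate 3 (-0.020). KRT81 ran from -0.23 to 0.059, above 0 without shSRC1 replicate 4. Neither was called. With shNT replicate 3 and shSRC1 replicate 2 left out, the smallest exact p is 0.1 and no ratio can pass. The 9 ratios whose ranges did not overlap then stood at 0.19 (KRT8/KRT18), -0.77 (KRT7/KRT19), 1.37 (KRT13/KRT19), -0.59 (KRT15/KRT19), -1.93 (KRT16/KRT19), 1.96 (KRT13/KRT15), -0.57 (KRT80/KRT8), -0.84 (KRT81/KRT8) and -0.42 (KRT86/KRT8). With 1 library left out, KRT15/KRT19 ran from -0.93 to -0.60 and missed the threshold without any of the shSRC1 replicates (adjusted exact p = 0.0635), and KRT81/KRT8 ran from -0.89 to -0.64 and missed it without shNT replicates 1 or 3.

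Counts for the other lists under the alternatives were added after the data were seen. Anchors and cytolinkers gave 3 calls with no filter, 10 with the replicate block (9 fell), 9 with length and GC correction, 10 in DESeq2 (9 fell), 3 with the 2 libraries out, and 2 to 6 with 1 library out. The other keratin genes gave 2 calls with the 2 libraries out and 2 to 4 with 1 out, the cornified list 2 to 5 with 1 out, and the transcription factors 16 with length and GC correction. Calls over all tested genes moved as well. They were 3796 of 38332 with no filter, 6398 of 19559 with the replicate block, 5946 of 18787 with length and GC correction and 5304 of 19559 in DESeq2. With the 2 libraries out they were 3453, and with 1 library out 3166 to 4815. The causes were not tested. Replicate numbers were correlated at 0.24, -0.01, 0.13 and 0.14 for replicates 1 to 4, not all over 0.1, so the numbers were not taken to pair libraries. As a hint from the data and not from the design, shSRC1 replicates 1, 3 and 4 correlated best with the shNT library of their own number, and replicate 2 did not. The replicate block gave 6398 calls and left 5 keratins called. Depth limits KRT16 most, with as few as 7 reads in a library.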
